A study of Homo sapiens with 6 samples.

Results

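The empty-vector libraries of HK-2 cells are described here, which are 3 of the 6 samples of the series and were chosen by the plasmid named in their titles. HK-2 is a human epithelial line, immortalised from the proximal tubule of the kidney. The genotype label is WT, and the cells carried a plasmid without insert, were kept at 1% oxygen for 24 h and were then reoxygenated for 12 h. The series' design text gives 24 h after treatment, and the time of the sample labels is used. The other 3 samples received a plasmid for circAASS and were not compared. Neither normoxic nor untransfected cells were analysed here, so every value is a level in treated, transfected cells of 1 line and not a response. RNA was sequenced as read pairs from a stranded mRNA kit. Nothing in the labels says that the 3 repeats came from separate cultures, so their spread may be technical.

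Proximal tubule cells reabsorb most of the filtered glucose, phosphate, amino acids and protein, through transporters and endocytic receptors of their brush border, and rely on mitochondrial oxidation of fatty acids. After ischaemia, surviving tubule cells flatten, lose brush border proteins, spread, divide and secrete injury proteins such as lipocalin 2. Cultured tubule lines are known to keep only a part of the differentiated program.

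Levels are given as RPKM, reads scaled to gene length and to the size of the library, so that genes can be set side by side per length. The libraries held 45148426, 51014541 and 52470055 counted reads, mates of a pair mostly counted singly. Across 35035 listed genes, 13009 had at least 1 RPKM in every repeat. Of 17320 nuclear protein-coding genes, 9749 (56.29%) reached 1 RPKM in every repeat, 2992 reached 10, 291 reached 100 and 8 reached 1000. The median coding gene stood at 1.71 RPKM, and 776 coding genes were listed at 0 in every repeat. The share of 56.29% is the one to set beside each count of group members at 1 RPKM below.

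The core promoters of some of the genes described below are shown because the letters TATAA stand before genes of widely different level and are missing before others. Each runs from 45 bases before to 15 bases after the RefSeq start on GRCh38, 5′ to 3′ on the gene's strand, with the letters TATAA in capitals where they lie 40 to 20 bases before the start.
TMSB10, chr2:84905611-84905670, plus strand: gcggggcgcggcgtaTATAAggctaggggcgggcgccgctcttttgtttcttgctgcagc
LCN2, chr9:128149408-128149467, plus strand: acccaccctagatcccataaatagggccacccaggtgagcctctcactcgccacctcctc
YBX1, chr1:42682373-42682432, plus strand: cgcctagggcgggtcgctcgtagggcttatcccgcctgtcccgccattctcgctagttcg
CALR, chr19:12938564-12938623, plus strand: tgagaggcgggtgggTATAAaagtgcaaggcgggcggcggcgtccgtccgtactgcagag
MT2A, chr16:56608539-56608598, plus strand: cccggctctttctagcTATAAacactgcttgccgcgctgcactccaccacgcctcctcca
CXCL8, chr4:73740524-73740583, plus strand: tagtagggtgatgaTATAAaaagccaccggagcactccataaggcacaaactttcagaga
AQP1, chr7:30911808-30911867, plus strand: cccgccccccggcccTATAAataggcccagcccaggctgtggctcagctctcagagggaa

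In the same window and strand, TATAA was found in 1324 of 35116 promoters of the RefSeq table (3.77%), in 60 of the 827 matched promoters among the 1000 highest coding genes (7.26%) and in 8 of 32 matched chaperone genes (25%). For genes with several listed starts, any start could match. The set of promoters is not complete, and a match is a description of letters. The same letters stood before TMSB10, with a mean of 3036 RPKM, and before AQP1, the water channel of the proximal tubule, with a mean of 0.0423 RPKM, of which 26.5% of the exon bases are shared with other genes. LCN2 and YBX1, among the 4 highest coding genes, did not have these letters in the window.

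The highest nuclear coding genes encoded an actin-binding peptide, a secreted injury protein, chaperones and RNA-binding proteins. TMSB10 (chr2:84905625-84906675), a thymosin that binds actin monomers, had 2952, 3030 and 3125 RPKM in repeats 1, 2 and 3. LCN2 (chr9:128149071-128153455), which encodes lipocalin 2, a clinical marker of tubular injury also known as NGAL, had 1934, 2201 and 2191 RPKM. Repeat 1 was thus the lowest for both, and no repeat of LCN2 overlapped with any of TMSB10. HSP90AB1, a cytosolic chaperone, had 1598, 1645 and 1597 RPKM. The cold-shock protein gene YBX1 had 1458, 1472 and 1482 RPKM, and HNRNPA1, a splicing regulator, had 1322, 1296 and 1335 RPKM. HSP90B1 and CALR, chaperones of the endoplasmic reticulum, had means of 1263 ± 77.3 and 1217 ± 25.01 RPKM (SD, n = 3), and their repeats overlapped. NDUFS5, a subunit of respiratory complex I, followed at 1055 ± 18.5 RPKM, and HSP90AA1 at 997 ± 4.58 RPKM.

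**Figure D1:**
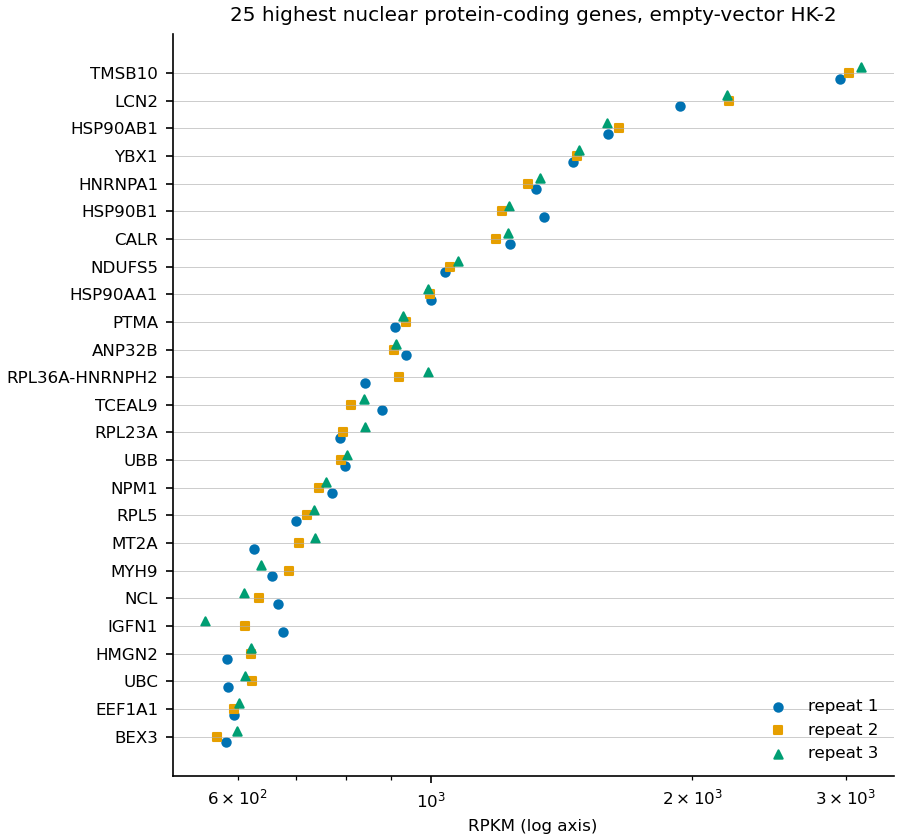
RPKM (log axis) of the 25 nuclear protein-coding genes with the highest mean, 1 symbol for each of 3 empty-vector repeats. TMSB10 and LCN2 lead in every repeat, and many neighbours in the order overlap.

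Of the 100 highest coding genes, 15 were cytosolic ribosomal proteins, 8 actin cytoskeleton genes, 7 chaperones, 6 translation factors and 2 glycolytic genes. Other genes share at least 20% of the exon bases of 10 of these 100, among them the readthrough gene RPL36A-HNRNPH2 (918 RPKM, all exon bases shared) and UBB (796 RPKM, 28.4% shared). Reads of such genes may belong to a neighbour, and their levels are uncertain. IGFN1, best known from skeletal muscle, was the coding gene with the most reads in repeat 1, 370116, and had 677, 613 and 551 RPKM. A group of neighbouring X-linked genes was among the high ones, chosen after their values were seen: TCEAL9 had a mean of 843 RPKM, BEX3 583 RPKM and TCEAL4 247 RPKM, whereas TCEAL5 was listed at 0 and TCEAL2 had 0.00784 RPKM.

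Transcripts of the mitochondrial genome, which encodes core subunits of the respiratory chain with its own transfer and ribosomal RNAs, took 37.8% ± 0.298 of the summed RPKM (SD, n = 3). By reads they took 8.95% ± 0.0872, since their genes are short and RPKM divides by length. Of the 30 highest genes with a symbol, 23 were mitochondrial, led by MT-ATP8 (26138 RPKM), MT-ATP6 (20387 RPKM) and MT-CO3 (12271 RPKM). MT-ATP8 overlaps MT-ATP6 in 22.2% of its bases. The ribosomal RNA gene MT-RNR2 had 6824 RPKM and MT-RNR1 239 RPKM. The pseudogene MTATP6P1 was listed at 2850 RPKM; it is a near-identical copy of MT-ATP6 and its level is uncertain.

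The 10 highest genes held 26.04% ± 0.254 of the summed RPKM, the 100 highest 50.7% ± 0.179 and the 1000 highest 75.1% ± 0.165. Among nuclear coding genes alone these shares were 8.15%, 27.4% and 64.1%. Of the recovered reads, nuclear coding genes took 83.5%, long non-coding RNAs 0.977% and pseudogenes 0.788%. A further 10310 listed genes, whose names did not match exactly 1 gene of the annotation, took 5.46% of the reads and 11.1% ± 0.0679 of the summed RPKM, and 2114 of them had at least 1 RPKM in every repeat. They include coding genes under older names, such as the ATP synthase gene ATP5B (66.3 RPKM), and are left out of the counts and ranks of coding genes.

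Among function groups, the 88 cytosolic ribosomal protein genes took 2.68% ± 0.114 of the summed RPKM, with 85 at 1 RPKM or more in every repeat and RPL23A (807 RPKM), RPL5 (719 RPKM) and RPL13A (499 RPKM) the highest. The 35 chaperone genes took 2.05% ± 0.0150, all 35 at 1 RPKM or more. The median chaperone stood at 85.3 RPKM, against 1.71 RPKM over all coding genes. The reticulum chaperone HSPA5 had 324, 292 and 310 RPKM.

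Actin cytoskeleton genes, which shape stress fibres and cell spreading, took 1.92% ± 0.0328 of the summed RPKM, with 33 of 35 at 1 RPKM or more. TMSB10 made up 39.6% of that sum. The non-muscle myosin gene MYH9 had 662 RPKM, the cytoplasmic actins ACTG1 and ACTB had 490 and 470 RPKM, and the myosin light chain gene MYL6 had 433 RPKM. Extracellular matrix genes took 0.494% ± 0.0165, with 31 of 38 at 1 RPKM or more. Fibronectin FN1 had 350, 405 and 394 RPKM, lowest in repeat 1. The basement membrane collagens COL4A2 and COL4A1 had 212 and 158 RPKM, and the matricellular gene CYR61 had 168 RPKM.

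In energy metabolism, 17 of 22 glycolysis genes had at least 1 RPKM in every repeat, with a median of 21.3 RPKM, led by GAPDH (479 RPKM) and ENO1 (371 RPKM). Of 8 gluconeogenesis genes, 3 reached that level, with a median of 0.638 RPKM. These were FBP2 (4.23 RPKM), the mitochondrial enzyme PCK2 (3.32 RPKM) and G6PC3 (2.65 RPKM), a widely expressed phosphatase. Of 21 fatty acid oxidation genes, 16 reached 1 RPKM, with a median of 2.48 RPKM, led by ECHS1 at 31.6 RPKM. The 103 genes that a name pattern for nuclear respiratory chain genes matched took 0.740% ± 0.0171 of the summed RPKM, of which NDUFS5 alone was 35.8%. That pattern also takes in pseudogenes, an antisense gene and readthrough genes, such as NDUFC2-KCTD14 (18.6 RPKM, all exon bases shared).

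Of 24 targets of the hypoxia-inducible factors, 18 had at least 1 RPKM in every repeat, and their median was 4.34 RPKM. Among the highest, PFKFB3, an activator of glycolysis, had 31.3 RPKM, the collagen prolyl hydroxylase genes P4HA2 and P4HA1 had 29.5 and 27.7 RPKM, and BNIP3, a mitophagy gene, had 15.5 RPKM. Chosen after their values were seen, CA9, a carbonic anhydrase often used as a hypoxia marker, had 0.396 RPKM (38.5% of its exon bases shared) and the prolyl hydroxylase gene EGLN3 had 0.0133 RPKM. Without a normoxic library these levels do not say whether any target had changed.

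All 26 proliferation genes had at least 1 RPKM in every repeat, with a median of 25.8 RPKM. The replication licensing gene MCM3 had 148 RPKM and MKI67, a marker of cycling cells, had 113, 133 and 118 RPKM. Of the cell cycle inhibitors and p53 genes, 16 of 19 reached 1 RPKM, led by CDKN2A (20.7 RPKM) and CDKN1B (19.4 RPKM). CDKN1A, named after its value was seen, had 2.01 RPKM.

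Among 27 measured cytokines and chemokines, 16 had at least 1 RPKM in every repeat, which is near the 56.29% of all nuclear coding genes. The neutrophil chemokine CXCL8 had 220, 219 and 227 RPKM, and the secreted phosphoprotein SPP1 (osteopontin) had 203, 212 and 215 RPKM. TGFB2 had 44.0 RPKM, with 26.6% of its exon bases shared with other genes. The growth factor gene CSF2 had 38.8 RPKM and the chemokine gene CXCL2 34.3 RPKM. The metallothionein MT2A, which binds zinc, had 627, 705 and 736 RPKM and made up 97.1% of its family's sum.

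The label of proximal tubule was checked against 48 measured markers of that segment. At least 1 RPKM in every repeat was found for 8 of them, 30 had a mean below 0.1 RPKM, and the median was 0.0465 RPKM, against 1.71 RPKM over all coding genes. Differentiated proximal tubule markers were therefore mostly near 0, although the labels give that cell type and the line was derived from it.

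The scaffold protein gene PDZK1 was the highest marker, with 36.6, 37.2 and 36.3 RPKM. The brush border enzyme gene GGT1 had 8.66, 9.75 and 9.34 RPKM, and UGT2B7, a glucuronosyltransferase, had 5.56, 5.30 and 5.46 RPKM. These 3 were apart from each other in every repeat. The bicarbonate cotransporter gene SLC4A4 had 2.20 RPKM, the inositol oxygenase gene MIOX 1.28 RPKM and AMN, the partner of cubilin, 1.26 RPKM. The glucose cotransporter gene SLC5A2 had 3.85 RPKM and the proton exchanger gene SLC9A3 2.67 RPKM, but other genes share 40.7% and 56.7% of their exon bases. The remaining 40 measured markers lay between 0 and the 0.628 RPKM of GATM, an enzyme of creatine synthesis.

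**Figure D2:**
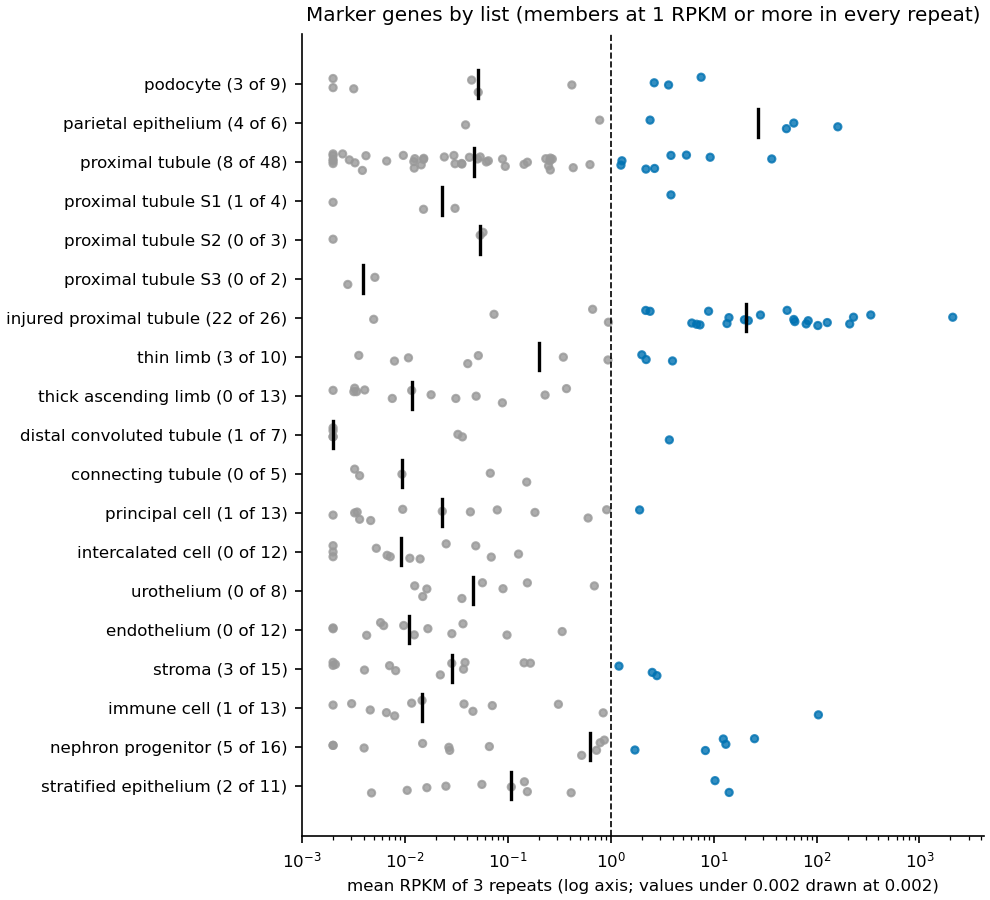
Mean RPKM (log axis) of each marker gene by list, with a black bar at the list's median and members under 1 RPKM in any repeat in grey. The injured proximal tubule list has 22 of 26 members at 1 RPKM or more in every repeat, and the proximal tubule list has 8 of 48.

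Markers of injured or repairing proximal tubule gave another picture. Of these markers, 22 of 26 had 1 RPKM or more in every repeat, against 56.29% of all nuclear coding genes. The median of the markers was 20.8 RPKM. LCN2 was the highest of them and made up 58.8% of their sum. S100A6, a calcium-binding protein gene, had 319, 329 and 362 RPKM, SPP1 had a mean of 210 RPKM, and KRT8, a simple-epithelium keratin, had 131, 126 and 124 RPKM. TPM1 had 229 RPKM with 21.4% of its exon bases shared. HAVCR1, which encodes kidney injury molecule 1, had 28.5, 28.2 and 28.9 RPKM and was named after its value was seen. The 4 members that did not reach 1 RPKM in every repeat were ITGB8 (0.949 RPKM), SOX9 (0.666 RPKM), CCL2 (0.0734 RPKM) and PROM1 (0.00497 RPKM). Several of these markers, such as KRT8 and S100A6, are also widely expressed in cultured epithelial lines.

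Of 16 nephron progenitor genes, 5 reached 1 RPKM in every repeat. Among them, the lineage factor PAX8 had 26.4, 24.2 and 24.3 RPKM and LHX1 had 13.6, 13.0 and 12.8 RPKM. The Notch ligand gene JAG1 had 8.31 RPKM. The repeats of PAX8 and LHX1 did not overlap, with PAX8 higher in each.

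Markers of most other cells were low, and those of the parietal epithelium were not. None of the measured markers of the thick ascending limb (13), connecting tubule (5), intercalated cells (12), urothelium (8) or endothelium (12) reached 1 RPKM in every repeat. The immune list had 1 of 13, CD68, at 104 RPKM, of which other genes share 85.8% of the exon bases. The distal convoluted tubule list had 1 of 7, CNNM2 (3.71 RPKM), and the principal cell list had 1 of 13, GATA2 (1.91 RPKM). The stroma list had 3 of 15, LUM (2.81 RPKM), TAGLN (2.53 RPKM) and COL1A1 (1.20 RPKM). The podocyte list had 3 of 9, SYNPO (7.56 RPKM), NTNG1 (3.65 RPKM) and PODXL (2.64 RPKM). The thin limb list had 3 of 10, CRYAB (3.98 RPKM, 20.6% of its exon bases shared), CLDN4 (2.21 RPKM) and SH3GL3 (2.00 RPKM). The stratified epithelium list had 2 of 11, SFN (14.1 RPKM) and KRT10 (10.3 RPKM). The parietal epithelium list had 4 of 6, with a median of 26.7 RPKM against 20.8 RPKM for the injury list, led by AKAP12 (161 RPKM), DCDC2 (60.1 RPKM) and CLDN1 (51.0 RPKM), of which DCDC2 is also in the injury list.

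Of 43 measured kidney transcription factors, 19 had at least 1 RPKM in every repeat. HOXB7, expressed along the ureteric bud lineage, was the highest, with 31.3, 32.7 and 35.7 RPKM. ELF3 had 12.1 RPKM, IRX3 9.81 RPKM, SOX4 8.93 RPKM, ZEB1 8.37 RPKM, KLF6 7.23 RPKM and SNAI2 6.50 RPKM. EYA1 and IRX1 (20.6% of its exon bases shared) were listed at 0 in every repeat.

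Pairs of genes that serve one function, labelled tubule form and widespread form, were compared by level. These labels do not hold equally for every pair. CDH6, set as a tubule form, is also in the injury list, and CLDN1, set as a widespread form, is in the parietal epithelium list. HNF4G, set as a widespread form, was itself below 1 RPKM in every repeat. In 13 of 14 such pairs every repeat of the widespread form was above every repeat of the tubule form. FABP5, a fatty acid binding protein, was 52.0-fold above FABP1, the tubule form, and CLDN1 was 11.2-fold above CLDN2, the leaky claudin of the proximal tubule. GPX1 was 4.44-fold above GPX3, and CDH2 was 2.57-fold above CDH6.

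For 5 of these pairs the tubule form was listed at 0 in at least 1 repeat and no ratio is given. PKM had 141 RPKM and PKLR 0.0128 RPKM, SLC2A1 had 10.5 RPKM and SLC2A2 0.0151 RPKM, and the endocytic receptor LRP1 had 5.21 RPKM and LRP2 (megalin) 0.00664 RPKM. HNF4G had 0.802 RPKM and HNF4A 0.00963 RPKM, and the amino acid transporter SLC7A5 had 5.18 RPKM and SLC6A19 0.00248 RPKM. Low levels of the tubule form were also found for PCK2 (3.32 RPKM) with PCK1 (0.0144 RPKM) and for the phosphate transporter SLC20A1 (5.05 RPKM) with SLC34A1 (0.0306 RPKM).

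The order was turned for lactate dehydrogenase. LDHB had 202, 203 and 218 RPKM and LDHA 69.2, 68.9 and 75.7 RPKM, a 2.91-fold difference, with 33.4% of the exon bases of LDHB shared. The glucose cotransporter genes SLC5A2 (3.85 RPKM, with the overlap given above) and SLC5A1 (0.00278 RPKM) were also set side by side. They were planned among 15 pairs, and SLC5A2, set as the tubule form, was above SLC5A1 in every repeat. SLC5A1 is itself a marker of the late proximal tubule, so these genes are not counted among the 14 pairs.

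**Figure D3:**
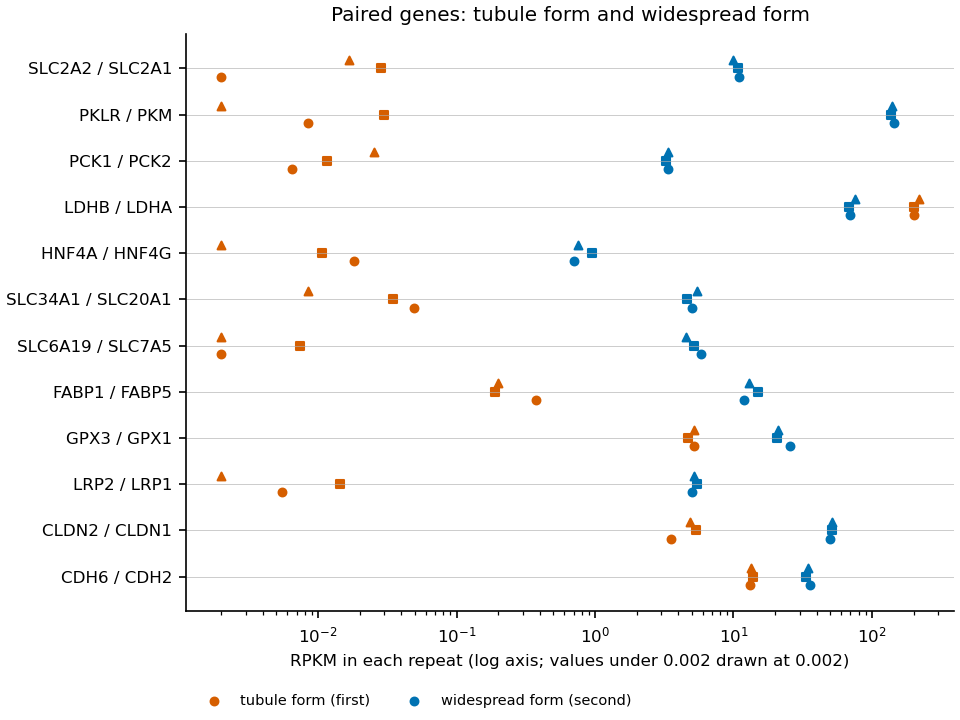
RPKM in each repeat (log axis) of the tubule form in orange and the widespread form in blue, for 12 of the 14 pairs; circle, square and triangle are repeats 1, 2 and 3. The widespread form is higher in 11 of the pairs drawn, and LDHB is the exception. SLC5A2 and SLC5A1, where the tubule form is also higher, are not among the 14.

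The repeats were close to each other. Over 10003 coding genes whose mean was 1 RPKM or more, the coefficient of variation (CV, SD over mean of 3 repeats) had a median of 4.97%. It was above 10% for 1503 genes and above 20% for 154, and no gene was above 50%. Across these genes, Pearson's r of log2(RPKM + 0.1) was 0.9961 to 0.9968 between pairs of repeats, with genes not independent replicates.

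The median CV fell with level, from 16.01% at 0.1 to 1 RPKM to 3.37% at 100 to 1000 RPKM. The CV that counting read pairs alone would give was 15% and 0.824% in the same ranges. High genes thus varied among repeats by more than counting error. At low levels the comparison cannot decide this, because the median of CVs from 3 repeats tends to lie below the true CV and the counting value is an expected CV.

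**Figure D4:**
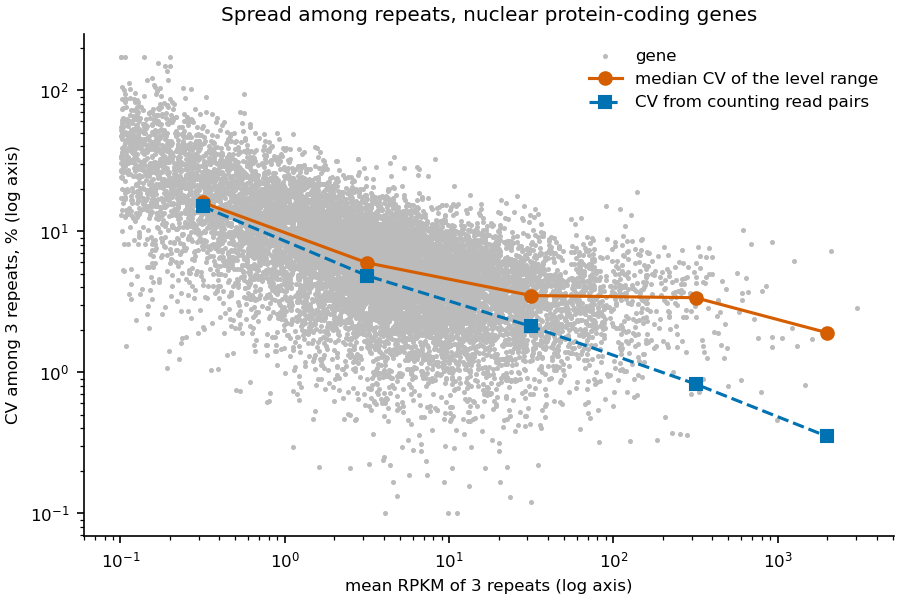
CV among 3 repeats in percent against mean RPKM, both on log axes, for nuclear protein-coding genes, with the median of each level range in orange and the CV from counting read pairs in blue. The lines are close at low levels and part above 10 RPKM.

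Of the 12 coding genes with the highest CV at 10 RPKM or more, 11 were highest in repeat 1. Over all 10003 coding genes with a mean of 1 RPKM or more, repeat 1 was highest for 31.5%. The 12 genes were picked by the values of these same repeats. BASP1, a membrane-bound signalling protein gene, had 168, 131 and 118 RPKM. The cell death genes BAD (CV 20.8%, 23.7% of its exon bases shared) and BAX (CV 18.1%) had 13.2, 9.42 and 9.37 RPKM and 16.2, 12.3 and 11.7 RPKM. DUSP1, an immediate-early phosphatase, had 24.6, 18.6 and 18.7 RPKM. COPRS, NENF, PXMP2 (29.1% of its exon bases shared), MKNK2, CCDC85B, SPACA6 and C12orf75 had CVs of 15% to 17.7%. The exception was the ribosomal protein gene RPS21, with 24.5, 27.9 and 33.0 RPKM.

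At 100 RPKM or more the highest CVs were those of BASP1 (18.8%), G0S2 (14.4%), HMGN1 (13.1%), RPS27 (10.8%) and IGFN1 (10.2%). At the other end, UNC45A (20.05% of its exon bases shared), RFC2, CTSV and STT3B had CVs of 0.0646% to 0.167%. The median CV from counting read pairs was 2.11% for genes at 10 to 100 RPKM, and these genes were picked as the lowest of 3095. CSPP1, C1GALT1C1, SCAF4, VCP, TNPO3, NEDD4 and R3HCC1L were also among the 12 lowest, the last at 0.293%.

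Some gene groups leaned to 1 repeat, counted over members with a mean of 1 RPKM or more. Cytosolic ribosomal protein genes were highest in repeat 3 for 76 of 85 and lowest in repeat 1 for 66 of 85. Over all 10003 coding genes, repeat 3 was highest for 38.6% and repeat 1 lowest for 39.6%. The median deviation of ribosomal protein genes from their own mean was -0.07, -0.01 and 0.07 on the log2(RPKM + 0.1) scale in repeats 1, 2 and 3. Genes of the tubulin list were highest in repeat 3 for 11 of 12, S100 genes for 7 of 7, genes of the respiratory chain pattern for 56 of 82, proteasome genes for 31 of 45 and targets of the hypoxia-inducible factors for 15 of 19. Extracellular matrix genes were lowest in repeat 1 for 19 of 31.

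**Figure D5:**
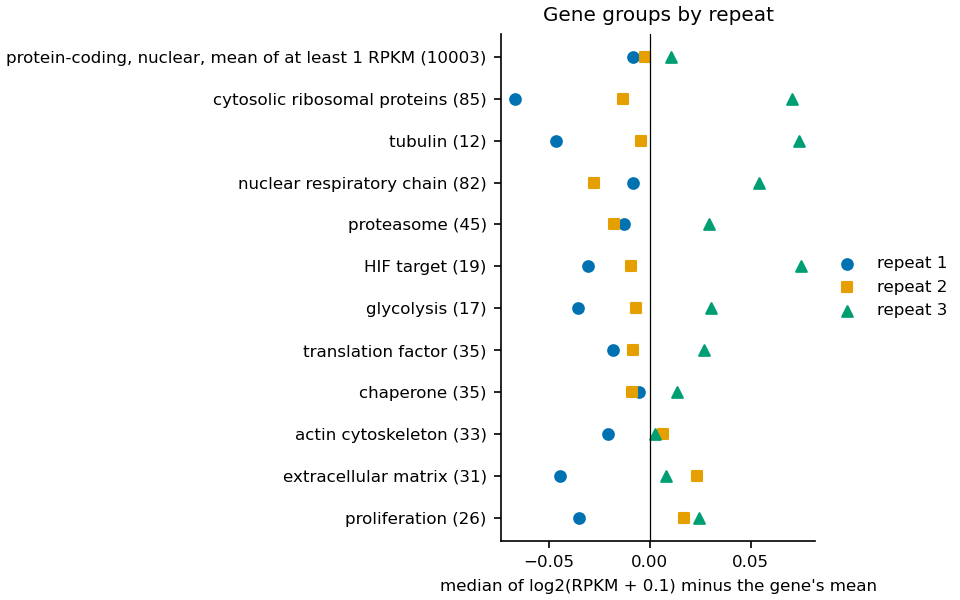
Median over the members of each group (number in brackets) of log2(RPKM + 0.1) minus the gene's mean over 3 repeats. Ribosomal protein genes reach 0.07 in repeat 3 and -0.07 in repeat 1, and the median over all coding genes stays near 0.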

How the data were processed

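RNA-seq values of 3 empty-vector libraries were used; groups and repeat numbers came from sample titles. The authors deposited RPKM for 35035 genes; the submitters' processing notes name Trimmomatic 0.36, featureCounts, Subread 1.5.1, edgeR 3.12.1 and GRCh38. Not given in the sources used here are the aligner, annotation and strand setting, so overlapping, antisense and near-identical genes are uncertain; overlaps of at least 20% of exon bases in GENCODE 29 are stated beside genes. Names of 28 genes had become dates.

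Library totals were worked out from the RPKM: with annotated exon lengths, 22385 of 24697 genes named once (90.64%) gave whole reads within 0.02 reads in all 6 columns. Odd read numbers made up 37.4% to 38.1%, which fixes 1 read as the unit. For 12650 other genes the smallest length giving whole reads was used. Tried on 400 genes of known length in each range, that search was right for 10.8% under 10 reads, 46.8% from 10 to 100, 94.2% from 100 to 1000 and 98.8% above, and erred to shorter lengths. Read numbers of single genes are therefore given only with an annotated length; recovered reads summed to 99.904% to 99.907% of the totals, so shares of reads are little touched. In a first test on simulated data that held even read numbers alone, the totals came out wrong; the estimator was corrected, the totals of simulated libraries with both kinds were then recovered, and the totals given here did not change.

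No test was run, since 1 group is described; means ± SD are over 3 repeats. The lists, families, pairs and the group itself were chosen with earlier results of these data known. Genes were named by rule: the 30 highest with a symbol, up to 5 highest per group, proximal tubule markers from 1 RPKM, up to 4 highest of other segment lists, all pairs, and the 12 highest and lowest CVs from 10 RPKM. Results of a few of these genes are not reported here. Python 3.11, numpy 2.4.6, pandas 2.3.3, scipy 1.17.1 and matplotlib 3.10.9 were used. Promoters are RefSeq's; of the gene sets searched, those with fewer than 80% of members in the promoter table are not reported. Alternatives were other level thresholds, pseudocounts and scalings, shares of reads, shares without the mitochondrial genome, and leaving out each repeat.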

Additional observations from a re-analysis of the deposited data

How the results depend on the processing

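No paired analysis was possible because 1 group is described and no test was run. Of 204 alternative values for 32 results, 166 were labelled as within 1.5 times (counts) or 1 SD between repeats (other values), and 38 as moved beyond. Genes at 5 RPKM or more in every repeat numbered 6320 (4989 nuclear coding), and genes above 0 in every repeat 22957. At 5 RPKM, 3 proximal tubule markers remained, and at 0.5 RPKM there were 8 nephron progenitor genes. The 100 highest genes held 27.2% of the recovered reads, 25.8% of the RPKM without the mitochondrial genome and 27.4% of the RPKM of nuclear coding genes. By reads, the share was 8.95% for the mitochondrial genome, 3.14% for ribosomal proteins, 3.16% for chaperones, 2.92% for actin cytoskeleton genes, 1.86% for translation factors, 1.70% for extracellular matrix genes and 1.03% for injured proximal tubule markers. Without the mitochondrial genome, the RPKM shares of the last 6 groups were 4.31%, 3.29%, 3.09%, 1.58%, 0.795% and 1.45% in that order. Shares of RPKM and of reads differ by construction, since only RPKM is divided by gene length. The median CV was 3.48% from a mean of 10 RPKM, 6.77% for genes above 0 in every repeat, and 3.70% to 4.26% when 1 repeat was left out. A CV of 2 values tends to be lower than one of 3, so the last range is not like the 4.97% over 3 repeats. For the median CV the bound was the SD of its values with 1 repeat left out. Leaving out a repeat moved no other count or share beyond those bounds. For shares of gene groups this was fixed beforehand, because leaving out 1 of 3 values always shifts their mean by less than 1 SD. Counts that require every repeat, the count of pairs among them, could only stay or rise when 1 repeat was left out. Lists with no member at 1 RPKM could only give 0 again at higher thresholds. The 166 values labelled as within the bounds include such cases. They also include the median SD of log2(RPKM + 1), 0.0588 against 0.0703 for log2(RPKM + 0.1), which was not compared with a bound. The count of genes with at least 10 reads (18311) is a lower bound, because searched lengths err to the short side. Values under about 0.1 RPKM rest on few reads, so that their order was not detectable at this depth.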

Other observations

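Antisense genes were among the highest long non-coding RNAs. TGFB2-AS1 had 461, 442 and 421 RPKM, whereas TGFB2 on the other strand had 44.0 RPKM. NUCB1-AS1 (392 RPKM, 49.4% of exon bases shared), RRM1-AS1 (196 RPKM), ARMCX3-AS1 (121 RPKM, 93.9% shared) and ODF2-AS1 (115 RPKM, 44.5% shared) followed, and whether counting used strand is not known. MALAT1 had 191, 189 and 182 RPKM and NORAD 109, 115 and 119 RPKM.

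Among transporters and adhesion genes, 143 of 369 genes that the solute carrier name pattern matched had at least 1 RPKM in every repeat. That pattern also takes in a few genes that are not transporters. The zinc transporter SLC39A7 had 71.9 RPKM and the lactate carrier SLC16A1 32.3 RPKM. None of 12 aquaporins reached 1 RPKM. Of 26 integrins, 11 did, and ITGB1, the common beta subunit, had 295 RPKM and made up 69.7% of the sum. Of 52 keratins, 6 did. The epithelial cadherin CDH1, named after its value was seen, had 0.0502, 0.0857 and 0.0617 RPKM, and the neural cadherin CDH2 had 35.6, 33.7 and 34.5 RPKM. Of 38 HOX genes, 22 reached 1 RPKM, led by HOXB7, HOXB9 (11.7 RPKM) and HOXA9 (11.2 RPKM, 27.0% shared). Among 25 interferon response genes 15 did, and BST2 (241 RPKM) was the highest. The HOX and interferon counts are near the 56.29% of all nuclear coding genes at that level.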
